A study of Homo sapiens with 16 samples.

Results

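The response of noncoding genes to ionizing radiation was followed in LNCaP prostate cancer cells for 10 of the 60605 gene identifiers counted in the series. Of these, 8 have a symbol and a known link to p53 or to DNA damage: NEAT1, MALAT1, LINC-PINT, PVT1, MIR34AHG, PURPL, TP53TG1 and MIR22HG. The other 2, ENSG00000203593 and ENSG00000224818, have no symbol and were taken because they were among the largest rises after 6 Gy in batch 1. In that batch they ranked 3 and 5 by rise among 18220 genes with a mean of at least 50 counts, at log2 ratios of 3.34 and 3.25. The next gene without a symbol, ENSG00000251095, ranked 8 at 3.04. Against the label "radiation-responsive", 6 of the 10 rose in batch 2, where 2.8% of all genes did, and 4 did not pass the test. The rule for the 2 genes without a symbol used batch 1 alone, and the 8 named genes were picked with earlier results of these data known.

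PRO-seq, which labels nascent RNA in nuclei to locate transcribing polymerases, was applied to LNCaP, an established line from a prostate cancer metastasis that carries wild-type p53 and depends on the androgen receptor. Batch 1 compared mock-treated with irradiated cells (6 Gy), with no vehicle or drug named in its treatment label. Batch 2 had 4 groups. Vehicle cells stood in DMSO for 90 min, irradiated vehicle cells received 6 Gy after 30 min in DMSO and were collected 60 min later, and the remaining groups had 10 µM enzalutamide, an androgen receptor antagonist, in place of DMSO, without or with the same irradiation. Each of the 6 groups had 2 replicates, numbered 1 and 2 in batch 1 and 3 and 4 in batch 2. Each batch 1 replicate number has a t1 and a t2 library. The meaning of t1 and t2 is not given in the labels, nor is the time after radiation for batch 1 on its own. Whether replicates were separate cultures is not stated either, so p-values measure the spread between these samples, which may be technical. All groups are 1 cell line. In bulk libraries, more responding cells and more transcription per cell cannot be told apart.

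After DNA breaks, damage kinases stabilise p53, a transcription factor that binds paired decamer sites and switches on genes for arrest, repair and death. Several long noncoding RNAs are among its known targets. Some act as hosts from which a microRNA is cut, as MIR34AHG does for miR-34a and MIR22HG for miR-22. Others act as RNAs themselves: NEAT1 scaffolds nuclear paraspeckles, MALAT1 sits in nuclear speckles, LINC-PINT was described as a p53-induced transcript tied to Polycomb repression, PURPL restrains basal p53, and PVT1 neighbours the MYC oncogene. PRO-seq counts polymerases on a gene and says nothing of how stable the mature RNA is.

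The mature microRNAs of the 2 host genes are shown because the hosts behaved differently after radiation. They are RefSeq sequences on GRCh38.p14, 5′ to 3′, with the seed (bases 2 to 8) in capitals. The seeds of miR-34a-5p and miR-22-3p differ.
hsa-miR-34a-5p: uGGCAGUGucuuagcugguugu
hsa-miR-22-3p: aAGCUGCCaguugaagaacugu

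MIR34AHG lies on chromosome 1 (9148011 to 9182338) and MIR22HG on chromosome 17 (1711504 to 1716210). miR-34a-5p is encoded on the minus strand at 9151735 to 9151756 and miR-22-3p at 1713914 to 1713935, each inside its host. NEAT1 (65422798 to 65445540) and MALAT1 (65497738 to 65506516) are on chromosome 11. LINC-PINT (130877562 to 131109925) and TP53TG1 (87325347 to 87345492) are on chromosome 7 and PURPL (27472292 to 27496401) is on chromosome 5. These and PVT1 are annotated as lncRNA genes in RefSeq on GRCh38.p14. The submitters' processing notes name hg38, but not the annotation behind the counts. The 2 genes without a symbol had no entry in that table and are not placed.

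Start-site windows, from 250 bases before to 50 after an annotated start, were found for 6 of the 10 genes. They were searched for the p53 decamer half-site, whose consensus reads the same on both strands. Of 35116 RefSeq windows of 300 bases, 2329 (6.63%) held at least 1 exact decamer and 10 (0.0285%) held 2 exact decamers no more than 13 bases apart. PURPL was 1 of these 10, with 2 decamers and no spacer, starting 127 bases before the start site. Another was LNCTAM34A, which overlaps the 5′ end of MIR34AHG on the opposite strand: its decamer pair lies 175 bases inside MIR34AHG, at 9182144 to 9182163 on chromosome 1. The windows of MIR34AHG itself, TP53TG1, LINC-PINT (4 windows), MALAT1 (2 windows) and MIR22HG held no exact decamer, which says only that those letters are not in those windows. The 2 windows with a pair are printed because both genes rose after radiation, with the decamer pair in capitals.
PURPL start-site window, plus strand, chr5:27472042-27472341: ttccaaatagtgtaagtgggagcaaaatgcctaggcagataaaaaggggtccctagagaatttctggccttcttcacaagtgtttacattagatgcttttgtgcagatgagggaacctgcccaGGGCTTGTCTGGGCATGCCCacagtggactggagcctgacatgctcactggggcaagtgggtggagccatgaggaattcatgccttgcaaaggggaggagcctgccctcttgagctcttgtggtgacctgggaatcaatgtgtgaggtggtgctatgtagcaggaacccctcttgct
LNCTAM34A start-site window, plus strand, chr1:9181954-9182253: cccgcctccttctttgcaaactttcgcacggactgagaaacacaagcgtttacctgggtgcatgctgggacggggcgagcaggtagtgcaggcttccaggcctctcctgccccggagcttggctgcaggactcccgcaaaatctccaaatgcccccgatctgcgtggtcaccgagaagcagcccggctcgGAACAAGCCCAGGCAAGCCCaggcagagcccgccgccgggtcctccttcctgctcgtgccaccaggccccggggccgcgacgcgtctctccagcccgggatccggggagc

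Of the 10 genes with such a window pair, 6 could be tested in batch 2. LNCTAM34A, PURPL and the repair gene DDB2 rose after radiation, where 2.8% of all genes did, and MCC, PTCHD4 and DYNC2H1 had log2 fold changes of 0.011, -0.19 and -0.075 that did not pass (edgeR, averaged over enzalutamide). A match is a description of the letters and not evidence of binding.

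Libraries held 10494563 to 19905824 counts in batch 2, and batch 1 replicates, with t1 and t2 summed, held 8022989 to 16851473. The 10 LNCaP markers summed to between 2959.6 and 3798 CPM (counts scaled to a common library total) in every replicate, and the 6 immune, fibroblast and endothelial markers to between 11.9 and 19.3. KLK3, the prostate-specific antigen gene, was low in batch 2 (5.28 to 17.1 CPM, against 135 to 181 in batch 1). Averaged over the other factor, 1 of the 10 LNCaP markers fell after radiation and 2 fell with enzalutamide, and none of the 4 other-cell markers that could be tested passed by edgeR; their part in the results below was not tested. In batch 1 the t1 and t2 libraries stood apart from each other within a replicate, and each batch 1 value that this touches is given for both kinds of library. Levels are in CPM scaled by TMM, a library scaling computed within each batch. Levels of different genes are not compared, since the lengths over which reads were counted are not given in the sources used here.

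Radiation was tested in the 8 batch 2 libraries with edgeR's quasi-likelihood test at an adjusted p of 0.05 over 28651 genes, and all 10 noncoding genes passed the filter on low counts. In vehicle cells 5 of the 10 rose and none fell by edgeR, where 0.743% of all genes rose, 0.353% fell and 1.1% passed in either direction. In enzalutamide cells 4 of 10 rose, where 0.625% of all genes rose, 0.293% fell and 0.918% passed. Averaged over enzalutamide, which sets 4 irradiated against 4 unirradiated libraries, 6 of 10 rose, where 2.8% of all genes rose, 1.91% fell and 4.71% passed. At an unadjusted p under 0.05 the counts were 7, 6 and 7 of 10 in these comparisons, where 11%, 9.49% and 21.8% of all genes passed. These 6 were MIR34AHG, PURPL, TP53TG1, NEAT1 and the 2 genes without a symbol, and their count was 6 whichever of the 8 libraries was left out. In each of the 6 all 4 irradiated libraries lay above all 4 unirradiated ones, a separation seen in 6.84% of all genes. The median log2 fold change was 0.62 over the 10 genes and -0.014 over all genes tested. The genes had been picked with earlier results of these data known, so the counts describe the list and do not set it apart from others.

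**Figure D1:**
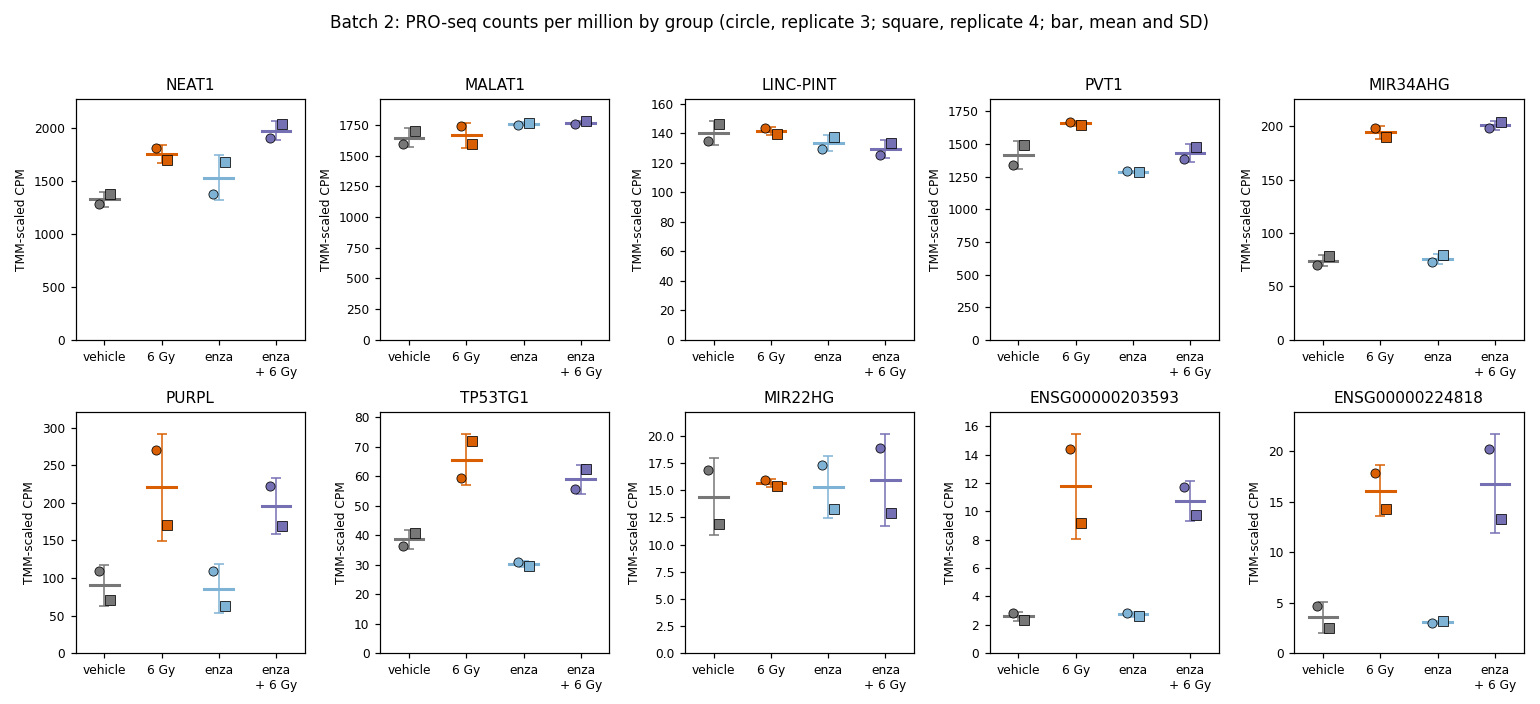
TMM-scaled CPM (y axis, from 0) of the 10 noncoding genes in the 4 groups of batch 2 (x axis; enza is enzalutamide); circles are replicate 3, squares replicate 4, and bars the mean and SD. MIR34AHG stands at 70.5 to 79.0 CPM in the 4 unirradiated libraries and at 190.0 to 204 in the 4 irradiated ones, while MALAT1 and LINC-PINT stay level.

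MIR34AHG, the host of the miR-34a shown above, had the smallest p-value of the 10 genes. Its level was 70.5 and 78.1 CPM in vehicle cells and 198 and 190.0 CPM after radiation with vehicle. With enzalutamide it was 72.7 and 79.0 CPM unirradiated and 198 and 204 CPM irradiated. The irradiated libraries were all high, the unirradiated all low, and the groups did not overlap. The fold change was 2.61 in vehicle cells (log2 1.39, SE 0.0894, edgeR adjusted p 1.78e-06) and 2.65 in enzalutamide cells (log2 1.41, SE 0.0901, edgeR adjusted p 1.94e-06). The identifier of MIR34A itself, the short stretch that encodes the hairpin, averaged 10 counts per library and did not pass in vehicle cells (log2 1.04, SE 0.483, edgeR adjusted p 0.454).

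PURPL, whose start-site window holds the decamer pair shown above, rose with more spread between replicates. It had 109.6 and 70.5 CPM in vehicle cells and 271 and 170.5 CPM after radiation with vehicle. With enzalutamide it had 109 and 62.5 CPM unirradiated and 223 and 169 CPM irradiated. Replicate 3 was higher than replicate 4 in all 4 groups, and the irradiated libraries still lay above all unirradiated ones. The averaged fold change was 2.36 (log2 1.24, SE 0.18, edgeR adjusted p 0.000863). In vehicle cells alone it was 2.46 (edgeR adjusted p 0.0329), a call lost with total-count scaling (0.0546), with DESeq2 (0.127) and without vehicle replicate 4 (0.237) or irradiated vehicle replicate 3 (0.396). In enzalutamide cells it was 2.26 and did not pass (edgeR adjusted p 0.0725). It did pass there with no filter, without vehicle replicate 3 (0.0288), vehicle replicate 4 (0.0272), irradiated vehicle replicate 3 (0.0498) or enzalutamide replicate 3 (0.00436).

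TP53TG1, named as a p53 target gene, rose by a smaller factor. Its level was 36.3 and 40.8 CPM in vehicle cells and 59.5 and 71.8 CPM after radiation with vehicle. With enzalutamide it was 30.9 and 29.5 CPM unirradiated and 55.5 and 62.3 CPM irradiated. The groups did not overlap, and the lowest pair of libraries was that with enzalutamide alone. The averaged fold change was 1.82 (log2 0.86, SE 0.0793, edgeR adjusted p 9.3e-06). In vehicle cells it was 1.70 (edgeR adjusted p 0.00265), and the call was lost without vehicle replicate 3 (0.0621) or irradiated vehicle replicate 4 (0.063).

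ENSG00000203593 was chosen on batch 1, so its batch 2 values are a separate measurement. It had 2.83 and 2.37 CPM in vehicle cells, 14.4 and 9.15 CPM after radiation with vehicle, 2.85 and 2.60 CPM with enzalutamide, and 11.7 and 9.72 CPM with enzalutamide and radiation. Raw counts were 28 to 56 in the unirradiated libraries and 118 to 211 in the irradiated ones, with no overlap. The averaged fold change was 4.22 (95% interval 3.30 to 5.41, edgeR adjusted p 2.18e-06).

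ENSG00000224818, also chosen on batch 1, rose as well in batch 2. Its 4 unirradiated libraries held 4.64 and 2.47 CPM with vehicle and 2.95 and 3.15 CPM with enzalutamide. Its 4 irradiated libraries held 17.9 and 14.3 CPM with vehicle and 20.2 and 13.3 CPM with enzalutamide. The averaged fold change of 4.99 (95% interval 3.77 to 6.61, edgeR adjusted p 2.42e-06) was the highest of the 10 genes, and its interval overlapped that of ENSG00000203593. Neither gene has a symbol or a location here, and overlap with a neighbouring radiation-induced gene was not tested.

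NEAT1, the paraspeckle scaffold, changed by a small factor. It had 1279 and 1377 CPM in vehicle cells and 1815 and 1698 CPM after radiation with vehicle. With enzalutamide it had 1382 and 1684 CPM unirradiated and 1911 and 2042 CPM irradiated. The irradiated libraries were higher within each arm, but the enzalutamide replicate at 1684 CPM almost reached the lowest irradiated one. Averaged over enzalutamide NEAT1 rose 1.31-fold (log2 0.39, SE 0.073, edgeR adjusted p 0.00715). It did not pass in vehicle cells (1.32-fold, edgeR adjusted p 0.182) or in enzalutamide cells (1.29-fold, edgeR adjusted p 0.297), although DESeq2 called it in vehicle cells (adjusted p 0.0138), as did edgeR there without enzalutamide replicate 3 (0.0491) or 4 (0.0444). With no filter it passed in both arms, and without enzalutamide replicate 4 it passed in enzalutamide cells (0.0445).

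MALAT1, which follows NEAT1 on the chromosome, showed no detectable change. Its level was 1592 and 1704 CPM in vehicle cells, 1739 and 1594 CPM after radiation with vehicle, 1751 and 1769 CPM with enzalutamide, and 1759 and 1779 CPM with both. The irradiated and unirradiated libraries overlapped. The averaged log2 fold change was 0.012, with a 95% interval of -0.12 to 0.14, so a change as large as that of MIR34AHG lies outside the interval (edgeR adjusted p 0.936). Its sign turned with total-count scaling (log2 -0.016). RefSeq places an antisense RNA, TALAM1, over MALAT1, and without stated strand use the reads of both cannot be told apart.

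LINC-PINT, the p53-linked intergenic transcript, did not pass either. Its 8 libraries held 134 and 146 CPM with vehicle, 143 and 139 CPM with vehicle and radiation, 129 and 137 CPM with enzalutamide, and 125 and 133 CPM with both. The irradiated and unirradiated libraries overlapped in each arm, and the averaged log2 fold change was -0.015 (95% interval -0.13 to 0.10, edgeR adjusted p 0.904).

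MIR22HG, the host of miR-22, had low counts and a wide interval. Its level was 16.9 and 11.9 CPM in vehicle cells, 15.9 and 15.4 CPM after radiation with vehicle, 17.3 and 13.3 CPM with enzalutamide, and 18.95 and 12.9 CPM with both. Replicate 3 was higher in each group. The averaged log2 fold change was 0.083 (95% interval -0.22 to 0.38, edgeR adjusted p 0.773), and the upper bound nearly reached the 0.39 of NEAT1.

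PVT1 lay between the genes that rose and those that did not. It had 1341 and 1493 CPM in vehicle cells and 1672 and 1644 CPM after radiation with vehicle. With enzalutamide it had 1293 and 1285 CPM unirradiated and 1386 and 1479.9 CPM irradiated. Irradiated libraries were higher within each arm but overlapped across the arms. The averaged fold change of 1.14 (log2 0.19, SE 0.0627, edgeR adjusted p 0.0999) did not pass, while DESeq2 called it (adjusted p 0.0228), as did edgeR with no filter (0.00616).

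**Figure D2:**
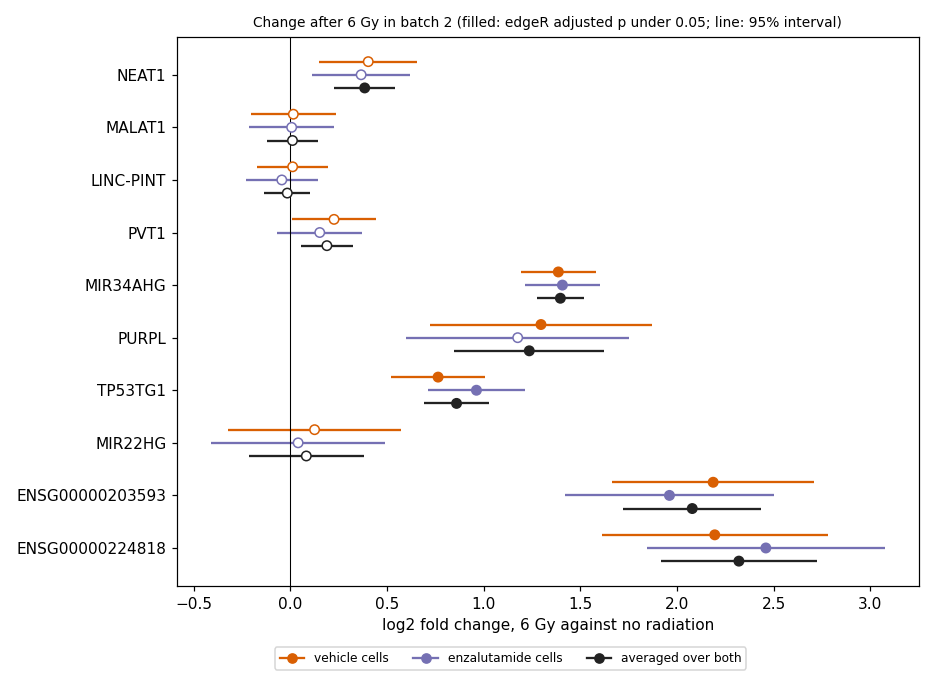
Log2 fold change after 6 Gy (x axis) for each noncoding gene (y axis) in batch 2, in vehicle cells, in enzalutamide cells and averaged; lines are 95% intervals and filled points have an edgeR adjusted p under 0.05. The 2 genes without a symbol lie furthest right at averaged values of 2.08 and 2.32. MALAT1, LINC-PINT and MIR22HG have intervals that include 0 in each comparison, and PVT1 does so in enzalutamide cells alone.

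The genes beside each noncoding gene were taken by position from RefSeq: those that overlap it and the nearest on each side, 31 in all, of which 27 matched an identifier and 18 passed the count filter. Averaged over enzalutamide, 4 of the 18 rose and 1 fell, where 2.8% and 1.91% of all genes did. CROT, which encodes a peroxisomal carnitine acyltransferase and lies 172 bases from TP53TG1, rose 0.92 on the log2 scale (SE 0.0696, edgeR adjusted p 1.23e-06) beside 0.86 for TP53TG1. TMEM243, on the far side of TP53TG1 and 104760 bases from it, rose 0.48 (SE 0.1, edgeR adjusted p 0.015). LNCTAM34A rose 1.18 (SE 0.0584, edgeR adjusted p 1.16e-08). In RefSeq it spans 9182204 to 9192086 and MIR34AHG ends at 9182338, so reads of both genes in the stretch they share are uncertain.

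At NEAT1, the coding neighbour FRMD8 rose 0.44 (SE 0.0624, edgeR adjusted p 0.000651), beside 0.39 for NEAT1. FAUP4, on its other side, had a log2 fold change of 0.15 and did not pass (edgeR adjusted p 0.482). At PVT1 the estimates differed in sign. MYC, which encodes a growth-promoting transcription factor and lies 51573 bases away, fell by 0.40 on the log2 scale (SE 0.0818, edgeR adjusted p 0.0129). PVT1 itself was at 0.19 and did not pass (edgeR adjusted p 0.0999). MKLN1, which starts 169 bases from LINC-PINT, was at -0.020 (SE 0.0672) and did not pass (edgeR adjusted p 0.896). Neither neighbour of PURPL matched an identifier. GPR157 and H6PD, on the 2 sides of MIR34AHG, had log2 fold changes of 0.23 and 0.13 that did not pass (edgeR adjusted p 0.0612 and 0.3).

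**Figure D3:**
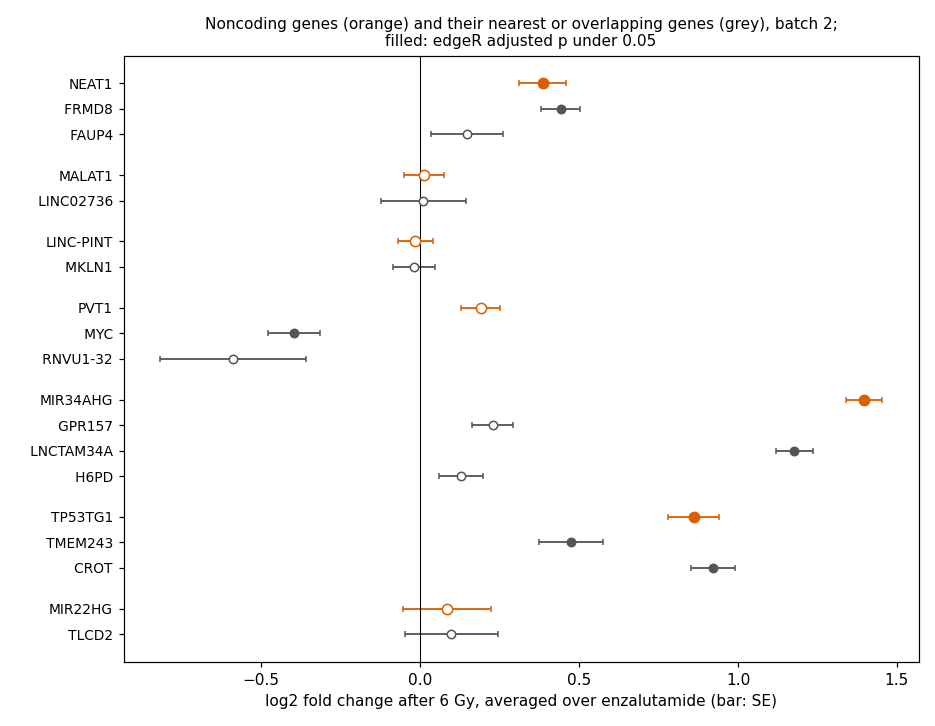
Log2 fold change after 6 Gy averaged over enzalutamide (x axis, bar is the SE) for noncoding genes (orange) and the neighbours or overlapping genes with 50 or more counts on average (grey); filled points have an edgeR adjusted p under 0.05. TP53TG1 and CROT stand at 0.86 and 0.92, and NEAT1 and FRMD8 at 0.39 and 0.44. PVT1, which did not pass, and MYC lie on opposite sides of 0.

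In batch 1, the contrast that chose the 2 unnamed genes, values are given as a description with no test. With t1 and t2 summed, irradiated cells were 10.1-fold above mock for ENSG00000203593 and 9.52-fold for ENSG00000224818. These ratios rest on low mock counts, 38 and 22 for ENSG00000203593 and 12 and 14 for ENSG00000224818. MIR34AHG was 3.57-fold higher, TP53TG1 2.73-fold and PURPL 2.62-fold. NEAT1 was 1.65-fold and PVT1 1.23-fold higher, MALAT1 stood at 1.05 and MIR22HG at 1.00, and LINC-PINT stood at 0.884 of mock. Both irradiated replicates lay above both mock replicates for 7 of the 10 genes, as they did for 20.3% of all genes, and below them for LINC-PINT, as for 19.7%.

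Levels in the batches are set side by side for the genes of lowest count in batch 1. ENSG00000203593 stood at 3.58 ± 1.65 CPM (SD, n = 2) in mock and 36.3 ± 3.33 CPM in irradiated cells of batch 1, beside 2.60 ± 0.328 CPM and 11.8 ± 3.70 CPM with vehicle in batch 2. ENSG00000224818 stood at 1.52 ± 0.026 CPM in mock and 14.5 ± 1.14 CPM in irradiated cells, beside 3.55 ± 1.53 CPM and 16.1 ± 2.53 CPM with vehicle (SD, n = 2). Its mock level rests on 12 and 14 raw counts, so the small SD there does not show a precise level. PURPL stood at 13.1 ± 2.93 CPM (SD, n = 2) in mock cells and at 90.1 ± 27.7 CPM (SD, n = 2) in vehicle cells. MIR22HG stood at 34.3 ± 1.07 CPM (SD, n = 2) in mock and at 14.4 ± 3.52 CPM (SD, n = 2) in vehicle. The tables were scaled separately and the batches differ in more than the vehicle, so these levels across batches were not tested.

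Taken apart, the t1 and t2 libraries of batch 1 gave the same direction for 5 of the 10 genes. MIR34AHG, TP53TG1, PURPL and both unnamed genes were higher after radiation in t1 and in t2 libraries alike, as were 4.21% of all genes. The 2 unnamed genes were chosen for their rise in these same libraries, so their direction here was largely fixed by that choice. MIR34AHG was 3.25-fold higher in the t1 libraries and 3.99-fold in the t2 libraries, and TP53TG1 was 2.91-fold and 2.53-fold higher. The log2 ratio of PURPL was 0.85 in t1 and 2.03 in t2, that of ENSG00000203593 was 3.44 and 3.35, and that of ENSG00000224818 was 3.11 and 3.56.

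NEAT1 depended on the kind of library. In t1 it had 1122 and 1402 CPM in mock and 1232 and 1240.0 CPM in irradiated cells, which overlap. In t2 it had 837 and 789 CPM in mock and 2312 and 2302 CPM in irradiated cells, a 2.84-fold ratio against 0.979 in t1. The batch 1 ratio of NEAT1 thus came from the t2 libraries alone.

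PVT1, MALAT1 and LINC-PINT went in opposite directions in the 2 kinds of library. PVT1 went from 1035 and 1219.8 to 875 and 921 CPM in t1, and from 653 and 621 to 1317 and 1321 CPM in t2. MALAT1 went from 1717 and 1925 to 1554 and 1669 CPM in t1, and from 1592 and 1554 to 2025 and 2005 CPM in t2. LINC-PINT went from 118 and 135 to 84.7 and 87.5 CPM in t1, and from 105 and 94.2 to 119 and 118 CPM in t2. MIR22HG had the reverse order, from 31.3 and 32.3 to 37.3 and 37.2 CPM in t1 and from 34.5 and 40.7 to 32.6 and 29.9 CPM in t2. A pattern of lower in t1 and higher in t2 was held by 20.9% of 21976 genes, and the reverse by 18.6%, so it was not particular to these 4.

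**Figure D4:**
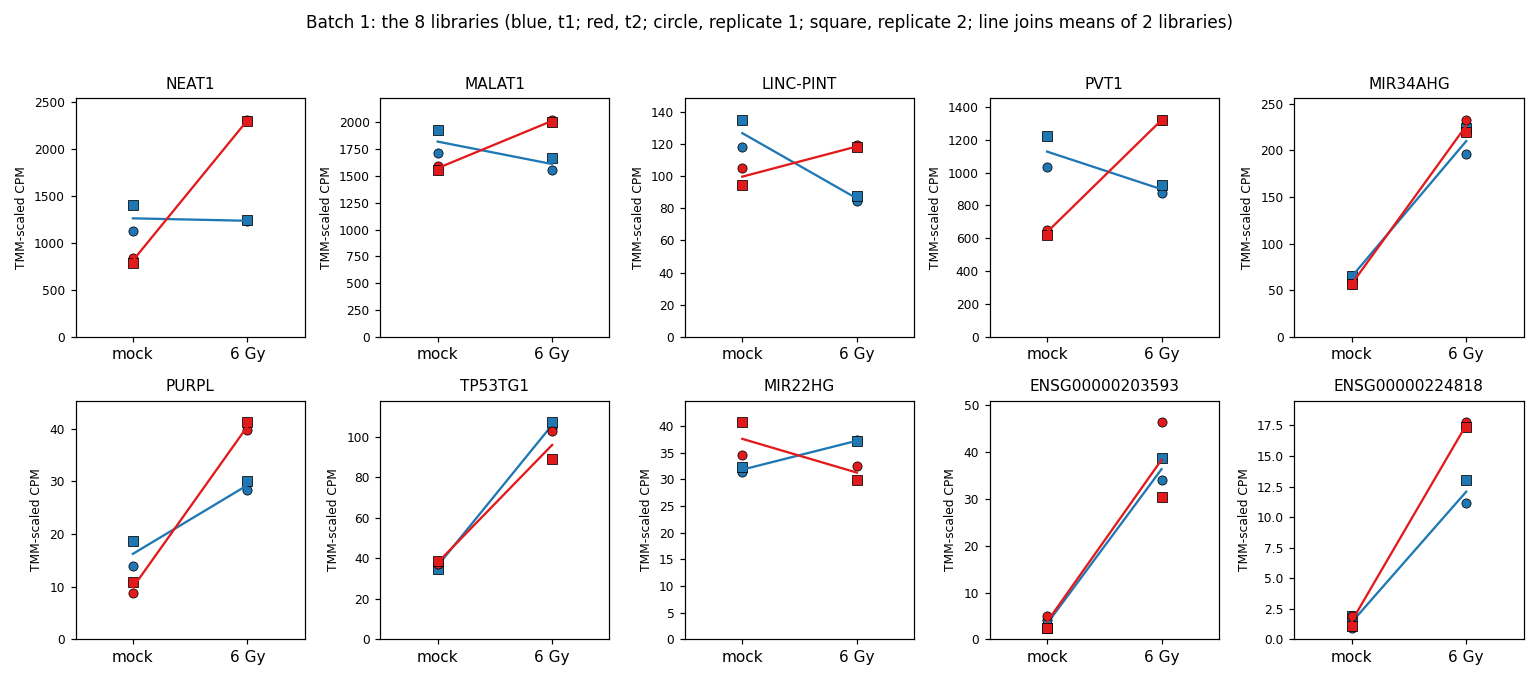
TMM-scaled CPM (y axis, from 0) in the 8 libraries of batch 1, mock against 6 Gy (x axis); blue is t1, red is t2, circles are replicate 1, squares replicate 2, and lines join the means of 2 libraries. For PVT1 the blue line falls from 1035 and 1219.8 CPM to 875 and 921 while the red line climbs from 653 and 621 to 1317 and 1321; for MIR34AHG both lines climb.

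Enzalutamide was compared averaged over radiation, to ask whether blocking the androgen receptor moved these genes. With edgeR none of the 10 passed, where 0.0628% of all genes did, and DESeq2 also called none. An unadjusted p under 0.05 was found for 3, where 6.21% of all genes had one. These were TP53TG1 (fold 0.842, 95% interval 0.749 to 0.947), PVT1 (fold 0.886, 95% interval 0.807 to 0.973) and NEAT1 (fold 1.14, 95% interval 1.02 to 1.27), with edgeR adjusted p-values of 0.685, 0.736 and 0.755. MALAT1 was the 1 gene whose 4 enzalutamide libraries (1751 to 1779 CPM) all lay above the 4 without (1592 to 1739 CPM), as in 1.35% of all genes, with a log2 fold change of 0.091 (edgeR adjusted p 0.876). The log2 fold change of MIR34AHG was 0.038 (95% interval -0.083 to 0.16).

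Whether enzalutamide altered the change after radiation was tested as an interaction. None of the 10 genes was called by edgeR or by DESeq2, and 0 of them reached an unadjusted p of 0.05. Over the whole table the share called was 0%, and 1.2% of genes had an unadjusted p under 0.05. The interaction of MIR34AHG was 0.021 on the log2 scale, with a 95% interval of -0.25 to 0.29, and that of TP53TG1 was 0.20 (-0.15 to 0.55). The intervals of PURPL (-0.93 to 0.69) and of the 2 unnamed genes, ENSG00000203593 (-0.99 to 0.54) and ENSG00000224818 (-0.60 to 1.13), were wider, so a moderate difference between arms was not detectable for them. In counts simulated with the same dispersion (0.02) for every gene, the fit recovered 13% of 2-fold interactions. That share need not hold for genes with a different spread, such as MIR34AHG with its narrow interval. A p that misses the threshold does not show that the arms respond alike.

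**Figure D5:**
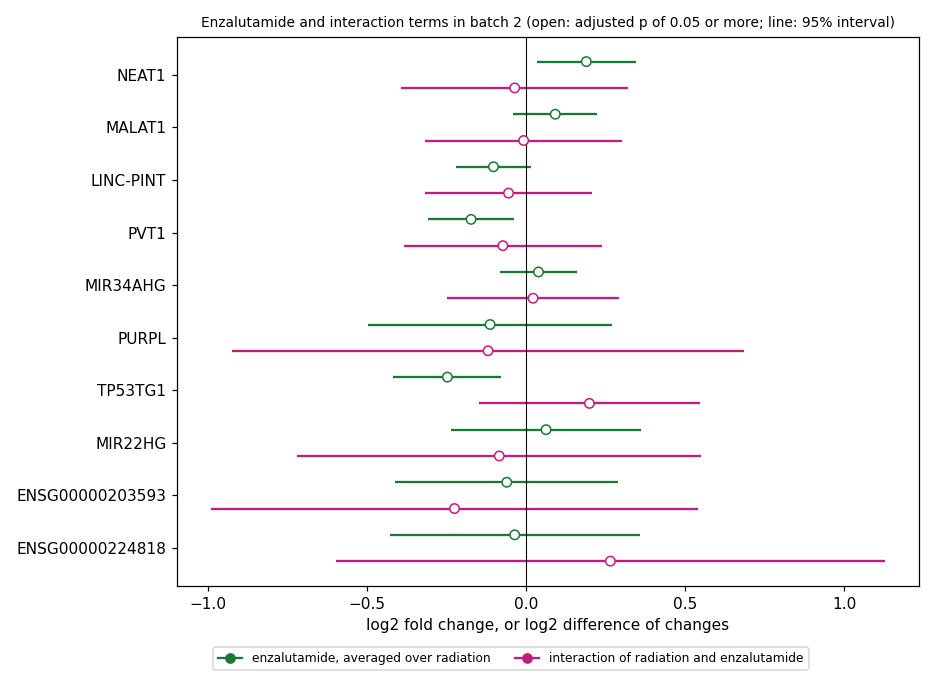
Log2 fold change for enzalutamide averaged over radiation (green) and log2 interaction of radiation and enzalutamide (pink), x axis, for each noncoding gene, y axis, in batch 2; lines are 95% intervals and open points did not pass with edgeR. TP53TG1 and PVT1 lie left of 0 for enzalutamide at -0.25 and -0.17 and NEAT1 right of it at 0.19.

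The coding targets of p53 gave the scale of the response. Of 51 listed targets tested in batch 2, 43 rose and 0 fell averaged over enzalutamide, where 2.8% and 1.91% of all genes did, with a median log2 fold change of 1.05. The smallest p-values were those of BTG2, an antiproliferative factor (log2 2.41), FDXR, a mitochondrial reductase (2.86), and MDM2, the ubiquitin ligase that degrades p53 (2.04), with edgeR adjusted p-values of 8.63e-12, 2.08e-11 and 1.62e-10. Beside that median, MIR34AHG was at 1.40 (95% interval 1.27 to 1.52), PURPL at 1.24 (0.85 to 1.62), TP53TG1 at 0.86 (0.69 to 1.03), ENSG00000203593 at 2.08 and ENSG00000224818 at 2.32.

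Of 20 other noncoding genes listed for a link to damage, 17 matched an identifier and 13 passed the count filter. Averaged over enzalutamide 1 of the 13 rose, where 2.8% of all genes did, and none fell by edgeR. It was DINOL, a p53-induced RNA from the CDKN1A promoter region (log2 1.94, SE 0.183, edgeR adjusted p 1.23e-05). LINP1, named for DNA end joining, was at -1.20 (edgeR adjusted p 0.1) and ZFAS1 at 0.21 (edgeR adjusted p 0.116), and neither passed. The median of the 13 was 0.078.

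The microRNA host genes were counted because 2 of the set are hosts. Apart from these, 82 symbols of the form MIR...HG were found and 61 tested. Averaged over enzalutamide none of the 61 rose by edgeR and 1 fell, MIR2052HG (log2 -0.59, SE 0.117, edgeR adjusted p 0.00979), where 1.91% of all genes fell. Their median was -0.12. MIR4300HG (-0.40, edgeR adjusted p 0.0555) and MIR3681HG (-0.42, edgeR adjusted p 0.0558) did not pass. Of 3385 RefSeq lncRNA genes tested, 40 rose and 68 fell (3.19% in all), with a median of -0.12, where 2.8% of all genes rose, 1.91% fell and 4.71% passed in all.

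For each of the 10 genes the most similar genes by Pearson's r were sought over the 8 batch 2 libraries, among 18729 others with a mean of at least 50 counts. These correlations across shared libraries are descriptions. Being the 2 highest of 18729 over 8 libraries, they do not show a link between genes. MIR34AHG was nearest to FDXR (r 0.998) and BLOC1S2 (0.997), PURPL to BLNK (0.994) and TGS1 (0.986), and TP53TG1 to FAM83F (0.990) and SERINC5 (0.982). ENSG00000203593 was nearest to SUSD6 (0.993) and TRIM32 (0.992), and ENSG00000224818 to GDF15 (0.991) and CEP68 (0.989). NEAT1 was nearest to MED16 (0.990), with its neighbour FRMD8 next (0.986). MALAT1 was nearest to CCNY (0.962) and PHACTR4 (0.949), LINC-PINT to CAMSAP2 (0.960) and ENSG00000273167 (0.959), and MIR22HG to MPLKIP (0.980) and SCNM1 (0.963).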

How the data were processed

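PRO-seq was measured in 16 libraries of LNCaP cells. The authors deposited 1 table of raw counts per gene for each batch, as judged from the values. The submitters' processing notes name cutadapt 1.8.1, Bowtie2 2.4.4, SAMtools 1.9 and hg38, without roles. The counting tool, annotation, strand use and removal of duplicates are not given in the sources used here, so overlapping and antisense genes are uncertain.

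Batch 2 was fitted with edgeR 4.0.16 in R 4.3.3 (filterByExpr, TMM, glmQLFit and glmQLFTest, two-sided, Benjamini-Hochberg over 28651 genes, threshold 0.05). Vehicle, irradiated, enzalutamide and combined libraries shared 1 estimate of spread, and averages came from a model without the interaction. In batch 1, t1 and t2 counts were summed per replicate number and described without a test. SE and 95% intervals come from the F statistic. The fit was tested on simulated counts with 200 genes changed 2-fold at a dispersion of 0.02. It recovered 77.5% of them for radiation in vehicle cells, 77% in enzalutamide cells and 97% averaged. For enzalutamide it recovered 96.5%, and for the interaction 13%. Of the genes called, 4.35% to 7.19% were false. Alternatives were RLE or total-count scaling, no filter, DESeq2 1.42.0, the replicate number as a block, and leaving out each library. Counts limit precision, with 28 to 34413 per library for these genes in batch 2.

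The genes and lists were chosen with earlier results of these data known. Named genes are the 10 genes, their RefSeq neighbours, the 3 smallest p-values of each list where any passed, and the 2 most correlated genes; the latter are not reported here for PVT1. Genes with a decamer pair, and those set beside the lists, were added after values were seen. Of 60605 identifiers, 60463 had an entry in the gene name table.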

Additional observations from a re-analysis of the deposited data

Results flagged for a closer look

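In batch 1, 4 of the 10 genes drew attention because every t1 library moved one way after radiation and every t2 library the other. Such a split was common: 20.9% of 21976 genes were lower in t1 and higher in t2, and 18.6% the reverse. It is therefore not particular to these 4. The difference of the log2 changes, t2 minus t1, was 1.38 for PVT1, 0.81 for LINC-PINT, 0.53 for MALAT1 and -0.49 for MIR22HG. These differences were not tested. In the 8 batch 2 libraries none of the 4 passed for radiation in the main edgeR fit. PVT1 did pass, averaged over enzalutamide, with DESeq2 and, in edgeR, with no filter or with the replicate block.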

How the results depend on the processing

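Which genes rose in the average over enzalutamide was stable: MIR34AHG, PURPL, TP53TG1, NEAT1 and the 2 unnamed genes passed there under each alternative and each left-out library, and PVT1 passed besides with DESeq2, with no filter and with the replicate block. No member passed for enzalutamide or the interaction under any alternative run. With no filter, genes called numbered 624 for radiation in vehicle cells, 556 in enzalutamide cells, 2391 averaged, 230 for enzalutamide and 32 for the interaction. DESeq2 gave 58 for enzalutamide. With the replicate block these counts were 1315, 951, 4307, 272 and 1. Replicate numbers 3 and 4 recur in each batch 2 group, and the replicate differences of 2 groups correlated across genes at 0.0899 to 0.243 over 6 pairs of groups. With only 2 numbers this does not establish pairing. The block called 6 of the 10 genes in vehicle cells and 6 in enzalutamide cells. Of 28651 genes it called 1315 and 951 there, where the main fit called 314 and 263. Among the 10 it added NEAT1 in both and PURPL in enzalutamide cells (edgeR adjusted p 6.4e-11, SE 0.0832).

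Leaving out 1 library gave 161 to 511 genes in vehicle cells, 139 to 434 in enzalutamide cells, 611 to 1677 averaged, 7 to 36 for enzalutamide and 0 to 4 for the interaction. Signs turned for the values that follow, none of which passed the test. With total counts MALAT1 was at -0.019 (vehicle), -0.013 (enzalutamide cells), -0.016 (averaged) and 0.0066 (interaction), and LINC-PINT at -0.022 in vehicle cells. Ranges over left-out libraries for radiation were -0.046 to 0.076 for MALAT1, -0.045 to 0.076 for LINC-PINT and -0.11 to 0.39 for MIR22HG in vehicle cells. In enzalutamide cells they were -0.089 to 0.031 for LINC-PINT and -0.23 to 0.30 for MIR22HG. Averaged they were -0.012 to 0.039 for MALAT1, -0.043 to 0.018 for LINC-PINT and -0.020 to 0.19 for MIR22HG. For enzalutamide they were -0.30 to 0.051 for PURPL, -0.049 to 0.16 for MIR22HG, -0.21 to 0.16 for ENSG00000203593 and -0.25 to 0.11 for ENSG00000224818. For the interaction they were -0.17 to 0.11 for NEAT1, -0.061 to 0.057 for MALAT1, -0.12 to 0.020 for LINC-PINT, -0.15 to 0.0044 for PVT1, -0.055 to 0.096 for MIR34AHG, -0.47 to 0.35 for PURPL, -0.35 to 0.17 for MIR22HG, -0.50 to 0.14 for ENSG00000203593 and -0.24 to 0.67 for ENSG00000224818. The cause of these changes was not tested. The lowest counts per library in batch 2 were 28 for ENSG00000203593, 34 for ENSG00000224818 and 143 for MIR22HG, with averaged SEs of 0.167, 0.188 and 0.139. PURPL had at least 674 counts and an SE of 0.18.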
